A study of Mus musculus with 24 samples.

Results

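The genes described here encode the cytoplasmic plaque of the desmosome and its closest relatives: the plakophilins Pkp1, Pkp2, Pkp3 and Pkp4, plakoglobin (Jup), the plakins desmoplakin (Dsp), periplakin (Ppl) and envoplakin (Evpl), and the tetraspan membrane protein Perp. They were chosen by name, with earlier results of these data known, and all 9 were found among the 54087 gene symbols of the count table. All 9 also passed the filter on low counts and were tested among 17094 genes.

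Desmosomes hold keratinocytes together against mechanical stress. Outside the cell, desmogleins and desmocollins pair between neighbours. Inside, the armadillo proteins plakoglobin and plakophilins bind the cadherin tails and recruit desmoplakin, which ties the complex to keratin filaments, while periplakin and envoplakin become part of the cornified envelope of the outermost layers.

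The samples were skin of mouse embryos at embryonic day 18.5, profiled by RNA-Seq of poly(A) RNA. WT embryos had both copies of the Dsg1 gene cluster, HET embryos (Dsg1+/-) had 1 copy and KO embryos (Dsg1-/-) had 0. The KO allele was made with CRISPR/Cas9 and removes the tandem genes for desmoglein 1, so it takes several genes at once; it goes back to 1 founder. No other allele or treatment is given in the sources used here. There were 24 libraries, 8 per genotype, with 8.98 M to 21 M counts each (M, mega). Libraries sharing genotype and title number were summed, which gave 5 columns per genotype with 15.3 M to 33.7 M counts, called replicates 1 to 5 by ascending number. The labels do not say what the number stands for or that columns came from separate embryos, so p-values measure the spread between these columns only. Library titles take 2 forms, called title series 1 and 2 here, and the labels do not explain them. Replicates 1 and 5 of WT, 4 and 5 of HET and 4 and 5 of KO are 1 library each, of series 2. Every other column sums 2 libraries, 1 from each series. Whole skin was used, and fewer keratinocytes and less RNA per keratinocyte cannot be told apart in it.

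The summed Dsg1a, Dsg1b and Dsg1c level was 806 ± 112 CPM (counts scaled to a library of 1 M by the TMM-adjusted size; mean ± SD, n = 5) in WT. HET columns had 422 ± 51.5 CPM and KO columns 0.548 ± 0.343 CPM. HET and KO each differed from WT (two-sided exact permutation test, p = 0.00794 for both, the smallest that 252 arrangements can give), so the levels follow the genotype labels. With any 1 column left out p stayed at or below 0.0159. Keratinocyte markers were present in every column, with a summed suprabasal level (Krt1, Krt10, Krtdap, Sbsn, Calm4 and Lgals7) of 55580 to 96800 CPM. One column stood apart: the 2 libraries of title number 35, WT replicate 2, carried the marks of different sexes, with summed Y-linked genes at 338 and 0.157 CPM and Xist at 0.275 and 574 CPM. Chi-square over degrees of freedom, comparing the counts of both libraries, was 15.6 here and 1.59 to 1.86 for the 8 other numbers with 2 libraries. Results are therefore also given with these libraries kept apart and without this column.

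Per length of transcript, the plaque genes covered a wide range of levels in WT skin. Perp, a p53 family target needed for stratified epithelia, was the most abundant at 1305 ± 105 CPM per kb (mean ± SD, n = 5). Pkp1, the main plakophilin of suprabasal epidermis, came next at 327 ± 70.6 CPM per kb, ahead of Jup at 223 ± 58.7 and Dsp at 184 ± 59.2 CPM per kb. Pkp3 lay at 105 ± 11.5, Ppl at 66.9 ± 20.6, Evpl at 48.5 ± 14.4 and Pkp4 at 17.8 ± 1.51 CPM per kb. Pkp2, the plakophilin of heart and simple epithelia, was lowest at 1.10 ± 0.112 CPM per kb, which rests on 55 to 127 counts per WT column. The order of the means was the same in HET and KO. Every neighbour pair kept its order in 15 of 15 columns except Jup over Dsp, which held in 13. The WT ranges of Pkp1 and Jup, Jup and Dsp, Pkp3 and Ppl, and Ppl and Evpl overlapped. Lengths are those of the principal transcripts of GENCODE vM21 and run from 1.95 kb for Perp to 9.59 kb for Dsp.

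**Figure D1:**
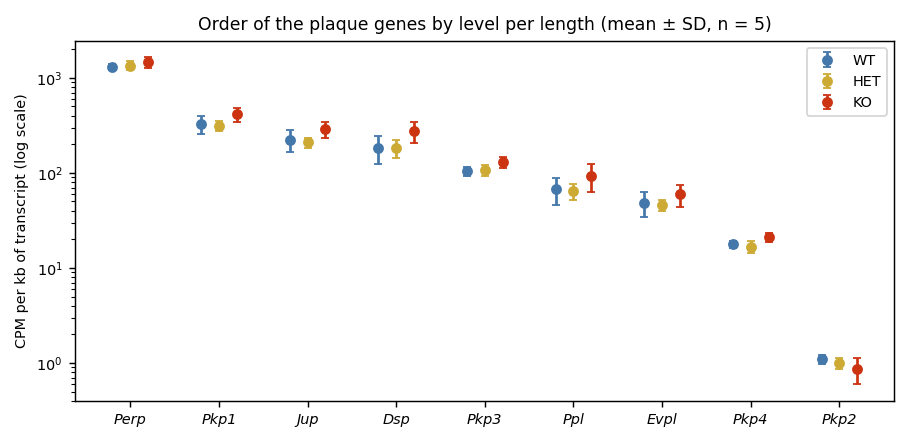
Level of each plaque gene per kb of transcript, on a log axis in CPM per kb, as the mean ± SD of 5 columns in WT, HET and KO. The genes keep the same order of means in all 3 genotypes, from Perp (1305 CPM per kb in WT) to Pkp2 (1.10 CPM per kb in WT).

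Among the 4 plakophilin genes, Pkp1 made up 72.1% ± 2.71 (SD, n = 5) of the summed level per kb in WT and 73.1% ± 1.28 in KO. The share of Pkp3 was 23.6% ± 2.38 in WT and 23% ± 0.827 in KO. Pkp4, which is related to p120 catenin and also found at classical junctions, held 4.02% ± 0.589 and 3.74% ± 0.549. Pkp2 held 0.251% ± 0.0606 in WT and 0.159% ± 0.0647 in KO. The ranges of each share overlapped between WT and KO.

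The 250 bases before and 50 after the transcription start are shown for Dsp and Jup, a plakin and an armadillo gene whose levels moved together across the columns. Both are 5′ to 3′ on the gene's strand, from RefSeq on GRCm38.p6. The Dsp window is chr13:38151044-38151343 (plus strand) and the Jup window chr11:100397741-100398040 (minus strand). Capitals mark matches on either strand to GGGCGG, the core of the GC box bound by Sp1 family factors, and in Dsp also 1 p53 family half-site; no match overlaps another in these windows.
Dsp: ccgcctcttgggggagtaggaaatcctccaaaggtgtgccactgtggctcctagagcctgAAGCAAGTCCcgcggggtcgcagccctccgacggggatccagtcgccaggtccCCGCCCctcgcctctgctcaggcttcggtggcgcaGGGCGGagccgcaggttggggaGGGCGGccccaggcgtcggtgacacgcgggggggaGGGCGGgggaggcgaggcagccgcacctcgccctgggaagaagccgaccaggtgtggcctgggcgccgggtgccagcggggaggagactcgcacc
Jup: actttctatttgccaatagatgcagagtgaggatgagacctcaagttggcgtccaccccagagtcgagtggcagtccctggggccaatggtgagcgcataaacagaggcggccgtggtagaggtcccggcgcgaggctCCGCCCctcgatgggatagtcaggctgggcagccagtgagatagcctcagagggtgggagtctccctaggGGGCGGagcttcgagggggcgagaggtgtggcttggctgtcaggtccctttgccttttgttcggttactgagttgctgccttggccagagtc
The Dsp window held 4 GC boxes, 27 CpG dinucleotides and 73.0% GC. The Jup window held 2 GC boxes, 14 CpG and 60.7% GC. Over all 32851 promoters of the same table the medians were 7 CpG and 52.7% GC, and 35.7% of promoters had a GC box. The half-site in Dsp lies 190 bases before the start and is a motif that 8.36% of promoters hold. Neither window held TATAAA (13.6% of promoters), TGANTCA (7.81%), GGAATG (14.7%) or CCGGTT (6.83%). Pkp4 was the third member with an entry, and its first start (chr2:59160600-59160899, plus strand) had 6 GC box matches, 27 CpG and 69.3% GC. Its second start (chr2:59161619-59161918) had 0 GC box matches, 2 GGAATG matches, 34 CpG and 68.0% GC. A match is a description of these letters only.

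The first comparison asked how the plaque genes differed in skin without Dsg1. In KO, 8 of the 9 genes had a higher fitted level than in WT and Pkp2 a lower one, but none passed the test. The largest difference was that of Dsp, 1.5-fold (95% interval 1.09 to 2.06), and the others ran from 0.78-fold for Pkp2 to 1.39-fold for Ppl. The median log2 fold change of the 9 was 0.31, beside -0.01 over all genes tested. The study describes Jup, Pkp1, Ppl and Dsp as trending downward in Dsg1-/- animals of this age, in a sentence that does not name the data set. It also reports Dsp gene expression as unchanged. At an adjusted p of 0.1 or below (edgeR, adjusted over all 17094 genes), 0 of 9 were called, where 1.15% of all genes were. With the study's further demand of at least 1 in log2 fold change, up or down, the count was also 0, against 0.322% of all genes. At an unadjusted p under 0.05, 6 of 9 were higher in KO (Pkp1, Pkp3, Pkp4, Jup, Dsp and Ppl), against 10.1% of all genes, and DESeq2, which called 8.49% of all genes, called 2 (Pkp3 and Dsp). By limma-voom 0 of 9 were called, where 494 of 17094 genes were. A fit of WT and KO columns only also called 0 of 9, and 24 of 16444 genes. Without WT replicate 2 the log2 fold changes ran from -0.30 for Pkp2 to 0.53 for Dsp with 0 called, where 29 of 17025 genes were. With its libraries apart they ran from -0.39 to 0.62, and 2 members (Pkp3 and Dsp) were called, where 7.18% of all genes were. Treating the 24 libraries as separate samples, which counts repeat libraries as independent, called 7 members and 23.7% of all genes. In none of the 9 were the 5 KO columns clear of the 5 WT columns, a pattern that 3.37% of all genes showed in either direction. A p that misses the threshold does not show that the levels were equal. The unadjusted 95% intervals reached up to 2.06-fold for Dsp and down to 0.58-fold for Pkp2. Those of Pkp2 (0.58 to 1.04), Evpl (0.92 to 1.63) and Perp (0.95 to 1.31) included no difference.

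**Figure D2:**
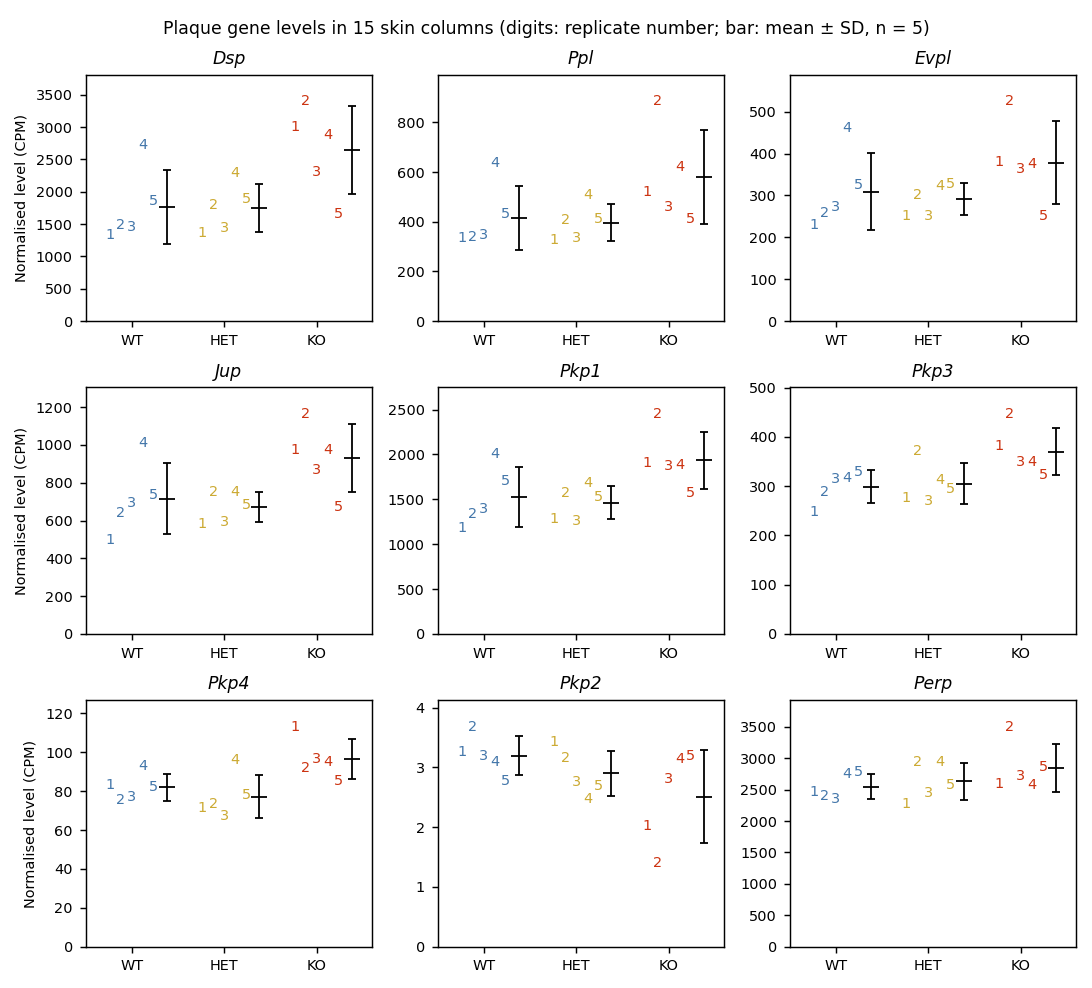
Normalised level (CPM, linear axes from 0) of each plaque gene in the 15 columns, with digits giving the replicate number and black bars the mean ± SD of 5 columns. For Dsp, WT replicate 4 (2717 CPM) lies among the KO columns and KO replicate 5 (1658 CPM) among the WT columns, and the groups overlap in every panel.

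Among the plakins, Dsp (chr13:38151294-38198577, plus strand, GRCm38; 24 exons) encodes the link between plaque and keratin filaments. Dsp levels were 1324, 1482, 1449, 2717 and 1861 CPM in WT replicates 1 to 5. Dsp in HET replicates 1 to 5 read 1367, 1795, 1440, 2284 and 1890 CPM. Dsp in KO replicates 1 to 5 read 2997, 3405, 2298, 2872 and 1658 CPM. In all, 4 of the 5 KO columns exceeded 4 of the 5 WT columns, while WT replicate 4 and KO replicate 5 lay on the other side, so the groups overlapped. The means were 1767 ± 568 CPM in WT and 2646 ± 679.6 CPM in KO, a log2 fold change of 0.58 (SE 0.22) with an adjusted p of 0.175. It was 0.53 without WT replicate 2 (adjusted p = 0.318) and 0.62 with the libraries of that column apart (adjusted p = 0.0999). Within the libraries of title series 1 alone it was 0.60, and within those of series 2 alone 0.58.

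Ppl (chr16:5086291-5132421, minus strand) encodes periplakin, which connects the cell cortex and the cornified envelope to keratins. Ppl levels were 335, 337, 345, 634 and 429 CPM in WT replicates 1 to 5 and 325, 408, 333, 506 and 409.5 CPM in the HET ones. Ppl in KO replicates 1 to 5 read 519.6, 886, 460.1, 620.2 and 409 CPM. KO replicate 2 had the highest level of all columns, and KO replicate 5 lay below WT replicates 4 and 5. The log2 fold change KO vs WT was 0.48 (SE 0.22, adjusted p = 0.249), and it was 0.27 without KO replicate 2.

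Evpl (chr11:116220559-116238077, minus strand) encodes envoplakin, the partner of periplakin and an early scaffold of the cornified envelope. Evpl levels were 229, 259, 273, 462 and 324 CPM in WT replicates 1 to 5 and 251, 301, 249.9, 324 and 328 CPM in the HET ones. Evpl in KO replicates 1 to 5 read 380.5, 526, 362, 375 and 250.1 CPM. Here KO replicate 5 lay below 4 of the 5 WT columns, and WT replicate 4 exceeded 4 of the 5 KO columns. For Evpl the log2 fold change was 0.29 (SE 0.19, adjusted p = 0.404), and it was 0.14 without KO replicate 2 and 0.48 without WT replicate 4. The within-column ratio of Evpl to Ppl differed by -0.17 on the log2 scale between KO and WT (exact permutation test, p = 0.111, adjusted p = 0.444 over 12 ratio tests).

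Of the armadillo genes, Jup (chr11:100368958-100397763, minus strand; 14 exons) encodes plakoglobin, which binds desmosomal and classical cadherin tails. Jup levels were 498, 639, 692, 1011 and 735 CPM in WT replicates 1 to 5 and 583, 749, 593, 750.5 and 683 CPM in the HET ones. Jup in KO replicates 1 to 5 read 973, 1165, 869, 971 and 673 CPM. WT replicate 4 exceeded all KO columns but replicate 2, and KO replicate 5 lay below WT replicates 3, 4 and 5. For Jup the log2 fold change was 0.38 (SE 0.17, adjusted p = 0.234). Set against its close relative beta-catenin within each column, the Jup to Ctnnb1 ratio differed by 0.30 on the log2 scale (exact permutation test, p = 0.167, adjusted p = 0.495). The Dsp to Jup ratio differed by 0.20 (exact permutation test, p = 0.0714, adjusted p = 0.429).

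Pkp1 (chr1:135871395-135919207, minus strand) encodes plakophilin 1, which clusters desmosomal cadherins and strengthens adhesion in the upper epidermis. Pkp1 levels were 1185, 1338, 1391, 2010 and 1702 CPM in WT replicates 1 to 5 and 1277, 1571, 1260, 1679 and 1529 CPM in the HET ones. Pkp1 in KO replicates 1 to 5 read 1902, 2453, 1876, 1880 and 1575 CPM. WT replicate 4 was above 4 of the 5 KO columns, and KO replicate 5 was below WT replicates 4 and 5. On the log2 scale Pkp1 in KO differed from WT by 0.35 (SE 0.15, adjusted p = 0.223). Its ratio to Pkp3 differed by 0.05 (exact permutation test, p = 0.619, adjusted p = 0.701).

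Pkp3 (chr7:141078218-141090510, plus strand) encodes plakophilin 3, found through all epidermal layers. Pkp3 levels were 247, 289, 315, 317 and 328 CPM in WT replicates 1 to 5 and 276, 372, 270.5, 312 and 294 CPM in the HET ones. Pkp3 in KO replicates 1 to 5 read 382, 447, 349, 348 and 322 CPM. The overlap was slight: only KO replicate 5 fell below the highest WT column, replicate 5. For Pkp3 the KO vs WT difference was 0.31 on the log2 scale (SE 0.11, adjusted p = 0.165), with the smallest unadjusted p of the 9 genes in this comparison.

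Pkp4 (chr2:59160850-59355208, plus strand) encodes plakophilin 4. Pkp4 levels were 83.1, 75.3, 77.0, 93.0 and 82.1 CPM in WT replicates 1 to 5 and 71.4, 73.4, 67.2, 96.0 and 77.9 CPM in the HET ones. Pkp4 in KO replicates 1 to 5 read 113, 92.0, 96.6, 95.2 and 85.2 CPM. KO replicates 2 and 5 lay below WT replicate 4, and the other KO columns lay above all WT columns. The log2 fold change was 0.23 (SE 0.10, adjusted p = 0.227). Its ratio to the related Ctnnd1 (p120 catenin) differed by 0.04 on the log2 scale (exact permutation test, p = 0.643, adjusted p = 0.701).

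Pkp2 (chr16:16213318-16272712, plus strand) was the only member with a lower fitted level in KO. Pkp2 levels were 3.25, 3.68, 3.19, 3.09 and 2.77 CPM in WT replicates 1 to 5 and 3.42, 3.16, 2.76, 2.47 and 2.68 CPM in the HET ones. Pkp2 in KO replicates 1 to 5 read 2.01, 1.40, 2.81, 3.13 and 3.19 CPM. KO replicates 1 and 2 were below all WT columns, KO replicate 3 lay at the low edge of WT, and replicates 4 and 5 lay inside the WT range. For Pkp2 the log2 fold change was -0.36 (SE 0.20, adjusted p = 0.317), and -0.21 without KO replicate 2. The Pkp2 to Pkp1 ratio differed by -0.77 on the log2 scale (exact permutation test, p = 0.0556, adjusted p = 0.429), and by -0.48 without KO replicate 2.

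Perp (chr10:18845020-18857073, plus strand; 3 exons) encodes a membrane protein of the desmosome and had the smallest difference of the 9 in size. Perp levels were 2455, 2403, 2346, 2751 and 2786 CPM in WT replicates 1 to 5 and 2278, 2940, 2450, 2933 and 2568 CPM in the HET ones. Perp in KO replicates 1 to 5 read 2582, 3501, 2719, 2570 and 2858 CPM. KO replicate 2 stood above all other columns, KO replicate 5 just above the WT range and the others inside it. For Perp the log2 fold change was 0.16 (SE 0.11, adjusted p = 0.42), and 0.07 without KO replicate 2.

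With 1 intact copy of the cluster, no difference of the plaque genes from WT was detected. None of the 9 was called HET vs WT by edgeR, DESeq2 or limma-voom, and none had an unadjusted p under 0.05. In edgeR, 0% of all genes were called and 1.58% had such a p. Log2 fold changes ran from -0.14 for Pkp2 to 0.05 for Perp with a median of -0.07, beside 0.00 over all genes, and each adjusted p was 0.9998. Dsg1a, a gene of the deleted cluster, fell from 724 to 379 CPM and also had an adjusted p of 0.9998 in edgeR. Dsg1b, of the same cluster, had 0.135. The adjusted test thus missed even these genes, so the lack of calls among the members cannot show equal levels. The WT and HET columns overlapped for every gene, while 0.374% of all genes had no overlap in either direction. The unadjusted 95% intervals, each for a single gene, show which differences could have been missed. The HET to WT ratio was 0.91 (95% interval 0.68 to 1.21) for Pkp2, which had the lowest bound. For Ppl it was 0.95 (95% interval 0.69 to 1.31) and for Evpl 0.94 (95% interval 0.71 to 1.25). It was 0.99 (95% interval 0.72 to 1.37) for Dsp, 0.94 (95% interval 0.73 to 1.2) for Jup and 1.02 (95% interval 0.87 to 1.2) for Pkp3. Of the 6 ratios, none passed the test between HET and WT (exact permutation tests, lowest adjusted p = 0.495).

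KO vs HET gave values of a similar size to KO vs WT; both use the same KO columns and are no separate evidence. The log2 fold change was 0.59 (SE 0.22, adjusted p = 0.219) for Dsp, 0.55 (adjusted p = 0.247) for Ppl, 0.47 (adjusted p = 0.204) for Jup and 0.40 (adjusted p = 0.216) for Pkp1. Pkp4 had the smallest adjusted p, 0.177, at a log2 fold change of 0.32. Pkp3 stood at 0.28, Evpl at 0.38, Perp at 0.11 and Pkp2 at -0.22. Again 0 of 9 were called, against 0.333% of all genes, and 6 were higher at an unadjusted p under 0.05, against 8.17%. DESeq2 called 1, Pkp4, among 4.62% of all genes, and the 24 separate libraries 7 among 24.6%.

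**Figure D3:**
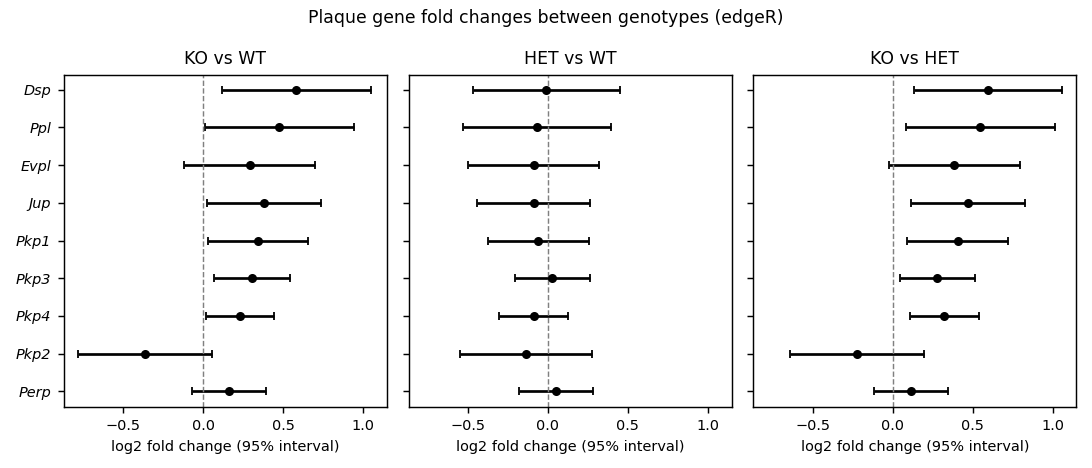
Log2 fold change of each plaque gene with its 95% interval (edgeR) in KO vs WT, HET vs WT and KO vs HET, with a dashed line at 0. In KO vs WT the points run from -0.36 for Pkp2 to 0.58 for Dsp, and in HET vs WT all lie between -0.14 and 0.05 with intervals across 0.

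The genes varied together from column to column, within genotypes as well as between them. WT replicate 4 was the highest WT column for 6 members (Pkp1, Pkp4, Jup, Dsp, Ppl and Evpl), and WT replicate 1 the lowest for 6. HET replicate 4 was the highest HET column for 5. Among KO columns, replicate 2 had the highest level of 7 members and the lowest of Pkp2, and replicate 5 the lowest level of 7. The summed level of the 9 genes ran from 6359 CPM (replicate 1) to 9998 CPM (replicate 4) in WT and from 7835 CPM (replicate 5) to 12480 CPM (replicate 2) in KO, so the ranges overlapped. Over the 15 columns, Pearson's r of log2 CPM with the mean of the other 8 genes was 0.99 for Pkp1, 0.96 for Jup and Dsp, 0.94 for Ppl and 0.92 for Evpl. It was lower for Pkp3 (0.82), Pkp4 (0.69) and Perp (0.67) and negative for Pkp2 (-0.73). After the genotype means were removed, the values were 0.97 for Pkp1, 0.94 for Jup and Dsp, 0.93 for Evpl, 0.91 for Ppl and -0.66 for Pkp2. Points of one column share library, depth and tissue composition, and these correlations are descriptions.

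**Figure D4:**
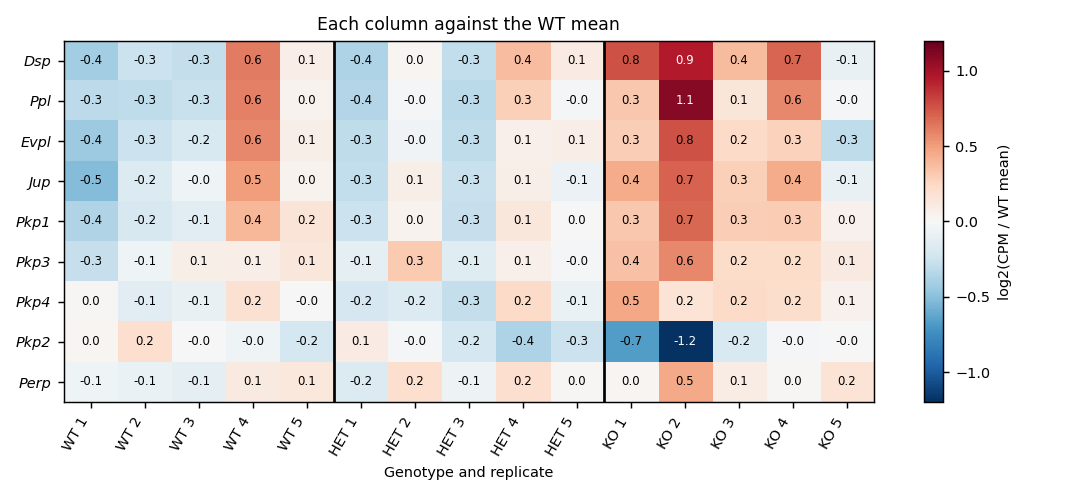
Log2 ratio of each plaque gene in each of the 15 columns to its WT mean, with red above and blue below. WT replicate 4 is above the WT mean for Dsp, Ppl, Evpl, Jup and Pkp1, KO replicate 5 is close to or below it for these genes, and Pkp2 runs the other way in KO replicates 1 and 2.

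Leaving out single columns changed the calls. Over all genes the share called also moved, from 1.15% to 9.74% without WT replicate 4 and 10.9% without KO replicate 5. Without WT replicate 4, 4 members were called higher in KO: Dsp at a log2 fold change of 0.79 (adjusted p = 0.0525), Ppl at 0.68 (0.0700), Jup at 0.54 (0.0610) and Pkp1 at 0.46 (0.0718), while Evpl stood at 0.48 (0.11) and was not called. Without KO replicate 5, 3 members were called: Dsp at 0.71 (adjusted p = 0.0672), Jup at 0.48 (0.0972) and Pkp3 at 0.35 (0.0877). Without KO replicate 2, Ppl (0.27), Evpl (0.14), Perp (0.07) and Pkp2 (-0.21) came closer to 0 by over 1.5 times, and no member was called. In KO vs HET, the omission of KO replicate 2 gave 0.34 for Ppl, 0.23 for Evpl, 0.02 for Perp and -0.07 for Pkp2. Without KO replicate 5, 3 members (Dsp, Jup and Pkp4) were called KO vs HET among 5.44% of all genes, and without HET replicate 4, 1 (Pkp4) among 1.54%.

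Genes outside the list with the most similar profile were sought among 12052 genes with a mean of at least 5 CPM. Lad1, which encodes the hemidesmosome anchoring filament protein ladinin, led with r = 0.98 over the 15 columns, followed by Acap2, Tiam1, Cdc42bpg and Cep170b, also at 0.98. After removal of the genotype means the leaders were Lad1 (0.99) and Tiam1, Pard3, Acap2 and Cep170b (0.97 each). The log2 fold changes KO vs WT of these 6 genes were 0.20 to 0.45, and none was called (adjusted p from 0.179 to 0.397).

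Other junction genes are given for comparison, from lists that were also chosen with earlier results of these data known. Of 6 desmosomal cadherin genes outside the deleted cluster, 2 rose in KO: Dsg3, the basal layer desmoglein, from 24.6 to 123 CPM (log2 fold change 2.31, adjusted p = 1.41e-05) and Dsc1, the desmocollin of the upper layers, from 962 to 1496 CPM (0.64, adjusted p = 0.0915). Dsg4 (1.66, adjusted p = 0.102) and Dsg2 (0.65, adjusted p = 0.107) lay just outside the threshold. The median log2 fold change of the 6 was 0.65, against 0.31 for the plaque genes. The Dsg1 cluster lies on chromosome 18, where 0 of the plaque genes lie. For Dsg4 the study calls it plausible that the deletion moves an enhancer close to the gene, which was not tested here. Of 4 other plakins, Eppk1 (epiplakin) rose from 22.7 to 44.0 CPM (0.95, adjusted p = 0.0915), while Plec, Dst and Macf1 did not pass, and the median was 0.33. None of 7 adherens junction genes (Ctnnb1, Ctnnd1, Arvcf, Ctnnd2, Ctnna1, Cdh1 and Cdh3) passed, with a median of 0.19. Of 6 cornified envelope partners, Ivl (involucrin), which periplakin and envoplakin are cross-linked to, rose from 510 to 866 CPM (0.76, adjusted p = 0.0231), with a median of 0.42 over Ivl, Lor, Tgm1, Tgm3, Tgm5 and Scel. None of the desmosome-bound keratins Krt5, Krt14, Krt1 and Krt10 passed (median 0.13). HET vs WT, 0 genes of these lists passed in edgeR, with Dsg3, Dsg4 and Ivl at an unadjusted p under 0.05; KO vs HET, Dsg3 alone did (1.37, adjusted p = 0.0103).

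Summed markers of cell types varied between the columns, and such levels cannot tell the number of cells from the RNA per cell. The summed suprabasal marker level was highest among WT columns in replicate 4 (75160 CPM, WT range from 55580) and lowest among KO columns in replicate 5 (68940 CPM), with the KO maximum of 96800 CPM in replicate 2. Its mean was 64970 ± 7677 CPM in WT and 76830 ± 11330 CPM in KO, and 0 of its 6 genes passed the test (median log2 fold change 0.13, 4 of 6 positive). Krt1 (0.32) and Krt10 (0.23) make up most of this sum. Sbsn stood at 0.57, Krtdap at 0.04, Calm4 at -0.06 and Lgals7 at -0.10. Summed basal markers (7 genes, 0 called), of which Krt5 and Krt14 make up most, were 6928 ± 305 CPM in WT and 7116 ± 589 CPM in KO. The median over the 7 basal genes was 0.16 with 6 of 7 positive, Itga6 standing at 0.33 and Col17a1 at 0.44 (adjusted p = 0.15 and 0.224). Dermal fibroblast markers (8 genes, 0 called, all with negative values, median -0.24) ran from 22820 to 37110 CPM in WT and from 15010 to 29940 CPM in KO. Skeletal muscle markers (8 genes, 0 called, median -0.15) ran from 11960 to 20590 CPM in WT and from 9055 to 17790 CPM in KO, lowest in KO replicate 2. Endothelial (5), erythroid (6) and adipocyte (4) markers had medians of 0.07, 0.54 and 1.72 with 0 called. The summed adipocyte level varied widely in KO, from 462 CPM (replicate 1) to 4816 CPM (replicate 4), and ran from 312 to 978 CPM in WT. Y-linked genes (4), which mark sex, had a median of 0.86 with 0 called. Their summed level was 366.5 CPM in WT replicate 5 and 142.7 CPM in WT replicate 2. In HET replicates 1, 4 and 5 and KO replicates 2, 3 and 4 it lay between 281.6 and 409 CPM. The remaining columns had at most 0.37 CPM. No marker gene was at 0 in every column of a genotype. With the mean log2 level of the basal markers as a covariate, the log2 fold change of Dsp was 0.25, of Ppl 0.16, of Jup and Pkp1 0.15 and of Evpl 0.03. It was 0.19 for Pkp3, 0.10 for Pkp4, 0.06 for Perp and -0.21 for Pkp2. The dermal markers as a covariate gave 0.65 for Dsp. The muscle markers gave 0.44 for Dsp, 0.27 for Ppl, 0.16 for Evpl and 0.09 for Perp. No member was called under these 3 covariates, and none was called without them. Of all 17094 genes, 24 were called with the basal, 33 with the dermal and 302 with the muscle covariate. With the Y-linked genes as a covariate, Dsp stood at 0.54, Ppl at 0.42 and Evpl at 0.24. No member was called in that fit, where 47 of 17094 genes were. The part of dermis, muscle, the other cell types and sex in the differences was not tested.

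Long transcripts had higher values in KO. Across 14597 genes with a length, which are not independent replicates, the median log2 fold change KO vs WT was 0.08 for transcripts of 4 kb or longer and -0.03 for shorter ones, and Spearman's rho with length was 0.24. HET vs WT, rho was 0.01. The difference between long and short genes ran from -0.15 (replicate 1) to 0.14 (replicate 4) in WT columns, from -0.11 to 0.08 in HET and from -0.04 (replicate 5) to 0.23 (replicate 1) in KO. KO replicate 2, the highest column for 7 members, stood at 0.07. Dsp, Evpl, Ppl, Pkp1 and Pkp4 all exceed 4 kb. With an offset for length in each column, the log2 fold change of Dsp was 0.47 and of Ppl 0.41. It was 0.30 for Pkp1, 0.21 for Evpl and 0.18 for Pkp4. Among the shorter members it was 0.37 for Jup, 0.31 for Pkp3, 0.215 for Perp and -0.36 for Pkp2. In this fit 0 of 9 were called, where 118 of 14597 genes were. The part of transcript length in the differences was not tested.

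**Figure D5:**
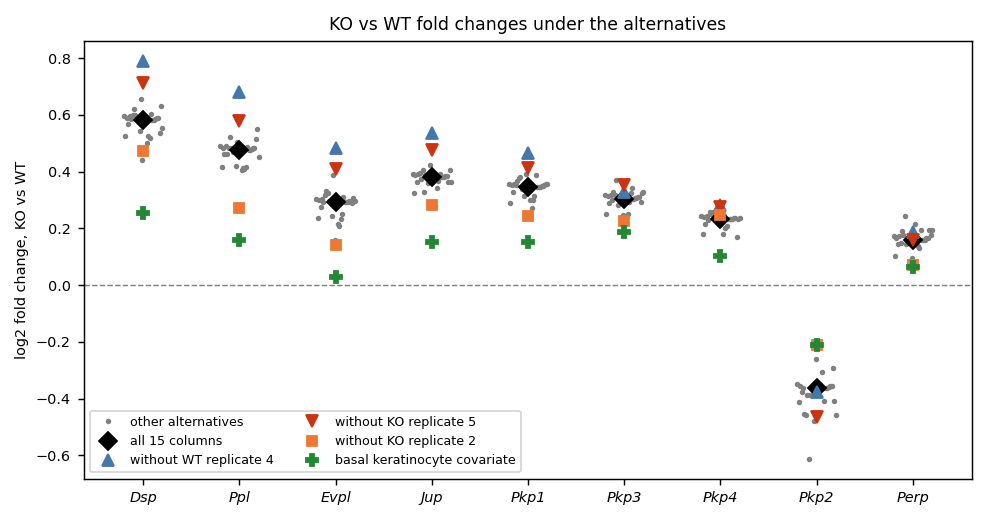
Log2 fold change KO vs WT of each plaque gene under the fit of all 15 columns (diamonds) and each alternative (grey points), with the omission of 3 single columns and the basal keratinocyte covariate marked. The omission of WT replicate 4 gives the highest values for Dsp (0.79), Ppl, Evpl, Jup and Pkp1, and the basal covariate the lowest (0.25 for Dsp); the sign stays the same for each gene.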

How the data were processed

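Skin RNA of 24 libraries was sequenced as poly(A) RNA from a directional kit. Raw counts per gene symbol were deposited by the authors, and their processing notes name STAR and HTSeq. The notes give the build as hg19, a human build, although libraries and symbols are mouse, so the build behind the counts is unclear; versions and the use of strand in counting are not given in the sources used here. Gene coordinates and lengths come from GENCODE vM21 (GRCm38), and 2 members (Pkp1 and Dsp) overlap an unclassified locus of that annotation that the count table does not list. Every sample column was used.

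Libraries sharing genotype and title number were summed into 15 columns. Counts were scaled by TMM, filtered with filterByExpr and tested with the quasi-likelihood test (robust) of edgeR 4.0.16 in R 4.3.3, all 3 genotypes in one fit. Benjamini-Hochberg adjustment ran over all 17094 genes. CPM were counts over the TMM-adjusted library size in M; likeness used log2(CPM + 0.5), and the Dsg1 sum log2(CPM + 1). Ratios were log2 differences within a column, compared with two-sided exact permutation tests (scipy 1.17.1) and adjusted over 12 tests. Promoters were from RefSeq on GRCm38.p6, with entries for Pkp4, Jup and Dsp among the 9 members. Fits were tested on simulated data. DESeq2 1.42.0, limma-voom (limma 3.58.1), other scalings, filters, covariates and sample choices were alternatives. The named genes were the 9 members, fixed lists and the 5 genes most like the members on each of 2 scales. Members and lists were chosen with earlier results of these data known.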

Additional observations from a re-analysis of the deposited data

How the results depend on the processing

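The fit was repeated under 32 alternatives, 15 of which left out 1 column. Of 864 member values, 813 kept their sign and side of the threshold, 30 passed the threshold under an alternative, 0 lost a call and 21 changed sign, 20 of them in HET vs WT. The number of members called KO vs WT was 0, and 2 under DESeq2 (8.49% of all genes called), 2 with number 35 as 2 columns (7.18%), 7 with 24 separate libraries (23.7%) and 0 to 4 when 1 column was left out (4 without WT replicate 4, 3 without KO replicate 5). KO vs HET it was 0, and 1 under DESeq2 (4.62%), 7 with 24 separate libraries (24.6%) and 0 to 3 when 1 column was left out (3 without KO replicate 5, 1 without HET replicate 4). HET vs WT it was 0 under every alternative.

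The values that changed sign were as follows. For Dsp HET vs WT they were 0.029 under limma-voom, 0.032 with number 35 as 2 columns, 0.0029 in title series 2 alone, and 0.013, 0.10 and 0.0085 with dermal, basal and muscle covariates. Pkp3 HET vs WT was -0.003 in series 2 alone. With the basal covariate, HET vs WT was 0.0016 for Pkp1, 0.038 for Ppl and 0.014 for Evpl, and Perp KO vs HET was -0.0066. With 1 column left out, HET vs WT ran from -0.14 to 0.060 for Pkp1, -0.054 to 0.071 for Pkp3, -0.20 to 0.068 for Jup, -0.12 to 0.20 for Dsp, -0.18 to 0.13 for Ppl and -0.18 to 0.10 for Evpl. The HET vs WT ratios ran from -0.044 to 0.038 for Evpl to Ppl, -0.12 to 0.015 for Pkp1 to Pkp3, -0.17 to 0.035 for Jup to Ctnnb1 and -0.22 to 0.0044 for Pkp2 to Pkp1, which was 0.030 in series 2 alone. The cause was not tested.

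No paired analysis was possible because no title number occurs in more than 1 genotype. Counting precision limits Pkp2, with 38 to 127 counts per column.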
